A study of Gallus gallus with 4 samples.

Results

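Binding of HIF1α near genes of the extracellular matrix, of the proteases that remodel it and of the integrins that attach cells to it was described in primary chick lens cells. The genes were chosen by name: a peak belonged to the group if a gene symbol assigned to it by the authors began with one of 26 prefixes for collagens, laminins, fibrillins, fibulins, nidogens, other matrix glycoproteins, matrix proteoglycans, lysyl oxidases, ADAM and MMP proteases, TIMP inhibitors or integrin subunits. This gave 106 of 8375 listed peaks, nearest to 58 gene symbols, at any distance from the transcription start site (TSS). The prefixes also caught 3 peaks of 3 genes whose products are not matrix proteins, proteases or integrins, namely COL4A3BP, SDCBP and ITGB1BP1, and 103 peaks of 55 genes remained without them.

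Lens cells were taken from White Leghorn chick embryos at embryonic day 10 and grown on dishes coated with laminin, itself a matrix protein. All cells received 1 mM dimethyloxalylglycine (DMOG), an inhibitor of prolyl hydroxylases that prevents the breakdown of HIF1α, for 4 h. CUT&RUN, in which an antibody carries a nuclease to a DNA-bound protein and the released fragments are sequenced, was performed on duplicate pools of 500000 cells, and each pool gave 1 library with an antibody to HIF1α and 1 library with control IgG. The 4 libraries were therefore 2 for HIF1α and 2 for IgG, both from DMOG-treated cells, and no comparison with untreated cells was made here. The 2 libraries of each kind were pooled by the authors before peaks were called, so every peak had 1 value and no replicate error. The peak list carries no measure of expression, so the identity of the cells could not be checked against lens markers.

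HIF1α is the oxygen-regulated subunit of a transcription factor that binds short DNA motifs in the promoters and enhancers of hypoxia-response genes, and enzymes that modify and crosslink collagen are among its known targets in other tissues. The lens is enclosed by the lens capsule, a thick basement membrane made by the lens cells themselves from type IV collagen, laminin, nidogen and heparan sulfate proteoglycans. Lens cells hold on to the capsule through integrins, which are pairs of an α and a β subunit, and secreted or membrane-bound metalloproteases cut matrix proteins and cell surface receptors.

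The peaks of this gene group were much like the rest of the list in strength and fewer of them lay near start sites. The fold enrichment, the HIF1α fragments over the IgG-derived background at the summit, had a median of 4.34 (95% rank interval 3.92 to 4.35) at the 106 peaks and of 3.92 at all listed peaks. The median number of HIF1α fragments over the summit was 9 in both. A −log10 q of at least 3, where q is the adjusted p of the MACS2 Poisson test, was reached by 30 of the 106 peaks (28.3%, Wilson 95% interval 20.6 to 37.5), against 26.5% of all peaks. A fold enrichment of at least 5 was reached by 13 of them (12.3%, interval 7.31 to 19.9), against 11.2% of all peaks, and of at least 10 by 1 (0.943%), against 0.394%. Shares this near to the background do not set the matrix genes apart in strength.

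The median distance was 33640.5 bp (interval 23729 to 49616) at the matrix, protease and integrin peaks and 23632 bp (interval 22627 to 24831) at all peaks. Within 3 kb of a TSS lay 8 of the 106 peaks (7.55%, interval 3.87 to 14.2), against 13.0% of all peaks, and within 10 kb lay 20 (18.9%, interval 12.6 to 27.4), against 30.8% of all peaks. Within 1 kb there was 1 peak (0.943%), against 6.28% of all peaks, and that peak belonged to COL4A3BP, a gene caught by its prefix only. No peak of the group covered a TSS (0 of 106, which allows a share of up to 2.83% if 3 counts are taken as the limit of a count of 0, and 3.50% by the Wilson interval), whereas 0.967% of all peaks did. Beyond 100 kb the shares were close, with 18 of 106 peaks (17.0%) against 17.1% of all peaks. The interval for the share within 10 kb lay below the value of all peaks, while the interval for the share within 3 kb held it and the intervals of the medians overlapped. These intervals count each peak as independent, although 74 of the 106 peaks came from 26 genes. Counted by gene, 18 of 183 annotated genes (9.84%, interval 6.31 to 15.0) had a peak within 10 kb. That interval held the 12.1% of all genes. These values describe a chosen gene list, and the difference was not tested. The shares of all genes, here and below, count only listed symbols that matched a RefSeq gene table by name or synonym. All symbols of the group matched. A gene listed under another name counts as having no peak, so the shares of all genes may be too low.

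**Figure D1:**
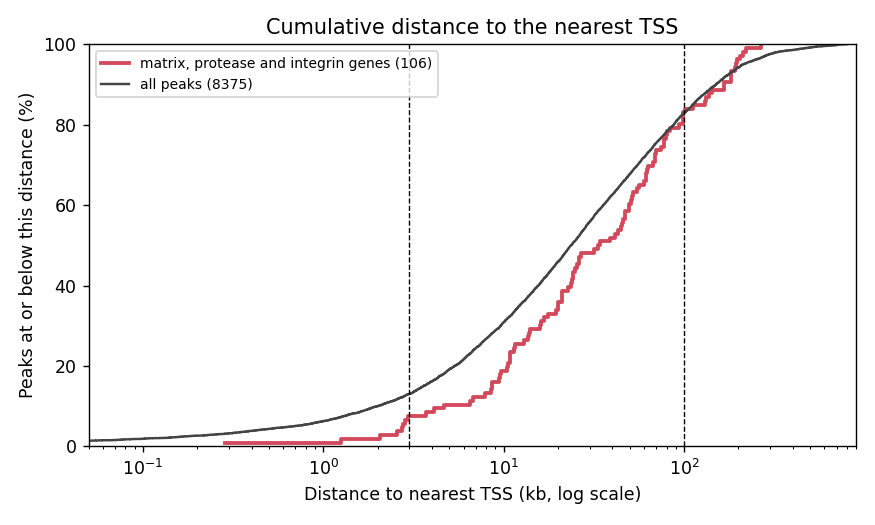
The percentage of peaks at or below each distance to the nearest TSS (kb, log scale) for the 106 peaks of matrix, protease and integrin genes (red) and for all 8375 peaks (grey), with dashed lines at 3 kb and 100 kb. The red line runs below the grey line at 3 kb (7.55% against 13.0%) and at 10 kb (18.9% against 30.8%), and the lines meet near 100 kb.

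Most of these peaks rested on few fragments. Between 7 and 9 fragments were counted at 60 of the 106 peaks (56.6%), against 58.9% of all peaks. Between 7 and 11 fragments were counted at 92 of the 106 peaks (86.8%), against 82.7% of all peaks, and 49 (46.2%) had a background at the floor of 1.297 fragments, the genome-wide level below which the background is not set, against 49.7% of all peaks. At the floor the fold enrichment is fixed by the fragment count alone: 7 fragments gave 3.48-fold, 9 gave 4.35-fold and 11 gave 5.22-fold. Exact Poisson 95% intervals, which cover counting error only, ran for 7 fragments between 2.81 and 14.4 and for 11 fragments between 5.49 and 19.7. The intervals overlapped, so peaks of 7 to 11 fragments could not be ranked among themselves at this depth. Where such a peak is called the strongest below, it only had the highest listed −log10 q. Leaving out ADAM33 and the 7 peaks with a high IgG background (over 3.89 fragments, 3 times the floor), the other 98 peaks had at most 13 fragments, fold enrichments between 3.16 and 6.09 and −log10 q values up to 5.71. A high IgG background was found at 6.60% of the peaks (interval 3.24 to 13.0), against 7.94% of all peaks.

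**Figure D2:**
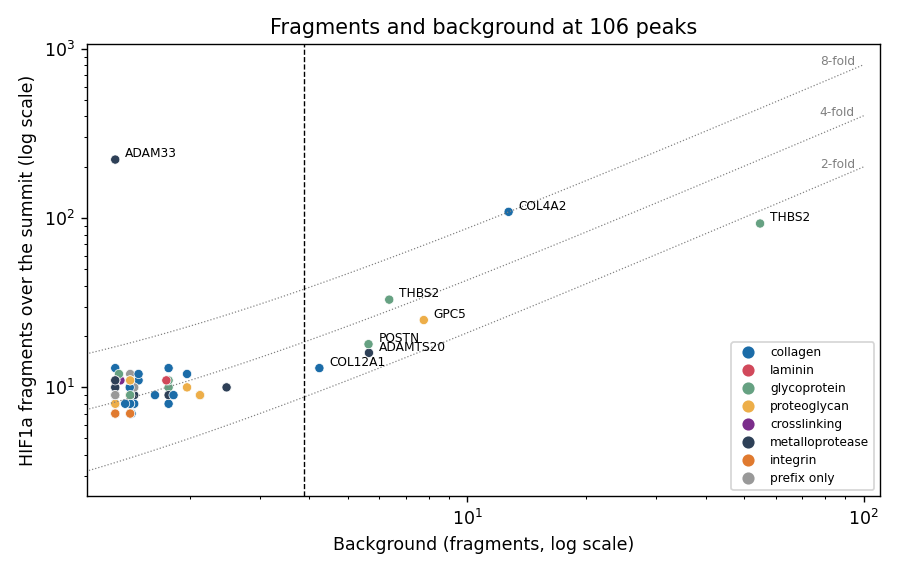
HIF1α fragments over the summit (log scale) against the background (fragments, log scale) at the 106 peaks, coloured by gene class, with dotted lines at 2-, 4- and 8-fold enrichment and a dashed line at the 3.89 fragments above which the background was called high; many points overlap at the lower left. ADAM33 stands alone at 222 fragments over the floor, while COL4A2 (109 fragments) and the THBS2 peak of 93 fragments lie to the right of the dashed line.

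The strongest peak was nearest to ADAM33, which encodes a membrane-anchored metalloprotease of the ADAM family. It lay on chromosome 4 from 89536778 to 89536932 (galGal6), 155 bp long and 54757 bp from the assigned TSS. It held 222 HIF1α fragments (interval 194 to 253) over a background at the floor, which gave a 97.1-fold enrichment (interval 84.8 to 111) and a −log10 q of 397. Intervals of a fold enrichment, here and below, cover the counting error of the HIF1α fragments only and take the background as exact. In the whole list the ADAM33 peak was the 3rd by fold enrichment and the 5th by −log10 q. Among the 4161 peaks at the floor it was 1 of 2 with 100 or more fragments, and the next highest peak of the matrix group at the floor held 13. The peak stood alone: the nearest other listed peak was 153375 bp away, was assigned to FBXO41 and held 7 fragments. In the RefSeq gene order ADAM33 lies between GFRA4 and ALMS1, so the assignment to ADAM33 rests on distance alone. Of the 17 annotated ADAM genes, ADAM10 was the only other one with a peak. ADAM10 cuts Notch receptors and cadherins at the cell surface, and its peak, on chromosome 10 from 7388500 to 7388630, lay 3719 bp from the TSS with 10 fragments and a 4.49-fold enrichment.

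In a list of 19 genes of the lens capsule, 6 had a peak (31.6%, interval 15.4 to 54.0), against 25.6% of all protein-coding genes. A peak within 10 kb was found at 3 of them (15.8%), against 12.1% of all genes, and within 3 kb at 2 (10.5%), against 5.61%, and the intervals of all 3 shares held the values of all genes. COL4A2, the α2 chain of the type IV collagen that forms the network of basement membranes, had the second strongest peak of the group. That peak, on chromosome 1 from 140224411 to 140224603 and at a TSS distance of 24214 bp, held 109 fragments (interval 89.5 to 131) over a background of 12.7, which gave an 8.01-fold enrichment (interval 6.59 to 9.65) and a −log10 q of 56.8. Its IgG background was high, unlike that of the ADAM33 peak. A second COL4A2 peak, 70071 bp from the TSS of another COL4A2 transcript, held 10 fragments and was enriched 4.56-fold. COL4A1, the partner chain, is the neighbour of COL4A2 in the RefSeq gene order and was assigned no peak. The assignment to COL4A2 rests on distance alone, and the distance of these peaks from COL4A1 was not computed. They therefore do not show that binding belongs to COL4A2 rather than COL4A1. COL4A3 to COL4A6 had no peak, so by assignment 1 of the 6 type IV collagen genes was nearest to a peak.

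The capsule peaks nearest to a TSS were at COL18A1 and NID1. COL18A1 encodes a basement membrane collagen whose end fragment is endostatin, and its peak on chromosome 7 from 6648511 to 6648630, at a TSS distance of 2826 bp, held 12 fragments (interval 6.20 to 21.0) with a 5.23-fold enrichment and a −log10 q of 4.17. NID1 encodes nidogen 1, which links laminin to type IV collagen. Its peak on chromosome 3 from 37938779 to 37938938 lay 2953 bp from the TSS with 9 fragments (4.35-fold), and a second lay 42754 bp away on the other side with 10 fragments (4.79-fold). These were counts of the same order as most of the list.

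Among laminins, the trimeric proteins that start basement membrane assembly, 2 of 12 annotated genes had a peak (16.7%, interval 4.70 to 44.8), against 25.6% of all genes, so the share was not distinguishable from that of other genes. LAMA5 had 11 fragments and a 4.37-fold enrichment at 4124 bp (chromosome 20, 7914704 to 7914819). LAMA3 had 10 fragments and a 4.79-fold enrichment at 33172 bp (chromosome 2, 103162369 to 103162474). The α1, β1, β2 and γ1 chain genes of the capsule list (LAMA1, LAMB1, LAMB2 and LAMC1) were nearest to no peak. AGRN, a heparan sulfate proteoglycan of basement membranes, had 1 peak at 13967 bp with 9 fragments. FN1, the fibronectin gene, had 1 peak at 13771 bp with 7 fragments and a −log10 q of 1.38, close to the lowest in the list (1.30). HSPG2 (perlecan), SPARC, NID2 and COL15A1 were also nearest to none.

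Collagens outside the capsule carried most collagen peaks, nearly always far from a TSS. In all, 14 of 41 annotated collagen genes (34.1%, interval 21.6 to 49.5) were nearest to a peak, against 25.6% of the 14357 protein-coding genes that carry a symbol. Of the 30 collagen peaks, 28 lay farther than 10 kb from a TSS. The 2 within 10 kb made up 6.67% (interval 1.85 to 21.3), against 30.8% of all peaks. That interval counts each peak as independent, although the 30 peaks came from 14 genes. Counted by gene, 2 of 41 (4.88%, interval 1.35 to 16.1) had a peak within 10 kb, and this interval held the 12.1% of all genes. The median fold enrichment of the 30 was 4.14, against 3.92 at all peaks. COL26A1, a short collagen, had 5 peaks between 23729 and 98809 bp from its TSS, all toward higher coordinates. Its strongest, on chromosome 19 from 3725268 to 3725422, held 13 fragments (interval 6.92 to 22.2) at the floor, with a 6.09-fold enrichment and a −log10 q of 5.71, the highest of the group among peaks with background at the floor after ADAM33.

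COL9A2, a chain of the type IX collagen that decorates collagen II fibrils in cartilage and vitreous, had 4 peaks between 55977 and 83318 bp from its TSS, all on the lower side, with 7 to 10 fragments. The strongest, on chromosome 23 from 4946664 to 4946778, was enriched 4.79-fold with a −log10 q of 3.07. COL9A3, another chain of the same collagen, had 1 peak at 4690 bp with 8 fragments, which was also assigned to OGFR. COL12A1 and COL22A1, fibril-associated collagens, had 3 peaks each, all on the higher side, at 26919 to 165573 bp for COL12A1 and at 61387 to 137872 bp for COL22A1. COL5A2 and COL3A1, fibrillar collagens that are neighbours in the gene order, had 2 peaks and 1 peak with 8 or 9 fragments each. The COL3A1 peak was also assigned to a gene without a name. The type I collagen genes COL1A1 and COL1A2 and the type II gene COL2A1 were nearest to none.

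Matrix glycoproteins had the highest share of genes with a peak at any distance, 11 of 21 (52.4%, interval 32.4 to 71.7), against 25.6% of all genes. This class is a remainder: it held ITGBL1 and the genes of the rule that fell in no other class. Its share was the highest of several classes, and the difference from all genes was not tested. The higher share was not seen near start sites. Within 10 kb 2 of 21 had a peak (9.52%, interval 2.65 to 28.9), against 12.1% of all genes, and within 3 kb 1 (4.76%), against 5.61%. THBS2, a thrombospondin that modulates how cells bind matrix, had 5 peaks, and they were unlike each other. The strongest by −log10 q (9.41), on chromosome 3 from 41415044 to 41415169 and at a TSS distance of 16706 bp, held 33 fragments (interval 22.7 to 46.3) over a background of 6.37 and was enriched 4.62-fold. Another, from 41392955 to 41393155 and at a TSS distance of 38720 bp, held 93 fragments over a background of 54.8 and was enriched 1.68-fold, the lowest of the group. Its IgG background was the highest of the 106 peaks. The other 3 THBS2 peaks, on the opposite side, held 9 fragments each.

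POSTN encodes periostin, a secreted protein that binds integrins and collagen. It had 5 peaks, from 10852 to 100774 bp from the TSS. The nearest, from 173383770 to 173383924 on chromosome 1, held 11 fragments and was enriched 4.97-fold with a −log10 q of 3.57, and the peak at 67151 bp had the same 3 values. The POSTN peak with the most fragments, 18, lay over a background of 5.64 and was enriched 2.86-fold. FBN3, a fibrillin of elastic microfibrils, had 1 peak with a −log10 q of 4.69, on chromosome 28 from 388190 to 388336, at a TSS distance of 21102 bp, with 12 fragments and a 5.59-fold enrichment. The fibulins FBLN1, FBLN2, FBLN5 and FBLN7 had 1 or 2 peaks each at 8628 to 44823 bp with 7 to 11 fragments, and TNC, tenascin C, had 1 with 7 fragments. ITGBL1, a secreted protein that resembles part of an integrin β subunit, had 1 with 7 fragments at 21108 bp.

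Proteoglycans of the cell surface and matrix were counted with the hyaluronan synthases HAS2 and HAS3. Of these 16 genes, 7 had a peak (43.8%, interval 23.1 to 66.8), against 25.6% of all genes. A peak within 3 kb was found at 3 of 16 (18.8%, interval 6.59 to 43.0), against 5.61% of all genes. That share rests on 3 genes and is 1 of several shares by class and distance. Its difference from all genes was not tested. SDC2 and SDC4 encode syndecans, transmembrane heparan sulfate proteoglycans that act with integrins. The SDC2 peak, on chromosome 2 from 126816170 to 126816372, lay 1253 bp from a TSS and was also assigned to CPQ, and held 7 fragments (3.48-fold, −log10 q 1.38). The SDC4 peak, on chromosome 20 from 5130022 to 5130126, lay at 2737 bp with 9 fragments (4.15-fold, −log10 q 2.28). ACAN, aggrecan, had 2 peaks on the same side of its TSS, at 2553 and 6506 bp, with 10 fragments each. The nearer one, on chromosome 10 from 13534834 to 13534948, was enriched 3.71-fold with a −log10 q of 1.90 and the farther one 4.56-fold. All of these were within the fragment range of the weak majority.

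Of the 6 annotated glypicans, which are heparan sulfate proteoglycans tethered to the membrane by a lipid anchor, 3 (50.0%, interval 18.8 to 81.2) had 10 peaks between them, against 25.6% of all genes with a peak. GPC4 had 4 peaks, 2 on each side of its TSS, at 25559 to 49616 bp, of which the strongest (chromosome 4, 3882869 to 3882989) held 9 fragments and was enriched 4.35-fold. GPC5 had 4 peaks, all on the lower side at 132491 to 219198 bp, each of them also assigned to microRNA genes. The GPC5 peak with the highest −log10 q (3.07), on chromosome 1 from 149286663 to 149287066, held 10 fragments at the floor, whereas the one with the most fragments, 25 (interval 16.2 to 36.9), lay over a background of 7.78 and was enriched 2.96-fold. GPC1 had 2 peaks, and the nearer one (chromosome 9, 3018657 to 3019089), at 10887 bp with 11 fragments, a 4.97-fold enrichment and a −log10 q of 3.57, was the strongest of the proteoglycan class. The lysyl oxidases, which crosslink collagen and elastin, had a peak at 1 of 5 genes (20.0%, interval 3.62 to 62.4), against 25.6% of all genes: the LOXL1 peak, on chromosome 10 from 2771314 to 2771419 and at a TSS distance of 9449 bp, held 11 fragments and was enriched 5.14-fold with a −log10 q of 3.81.

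**Figure D3:**
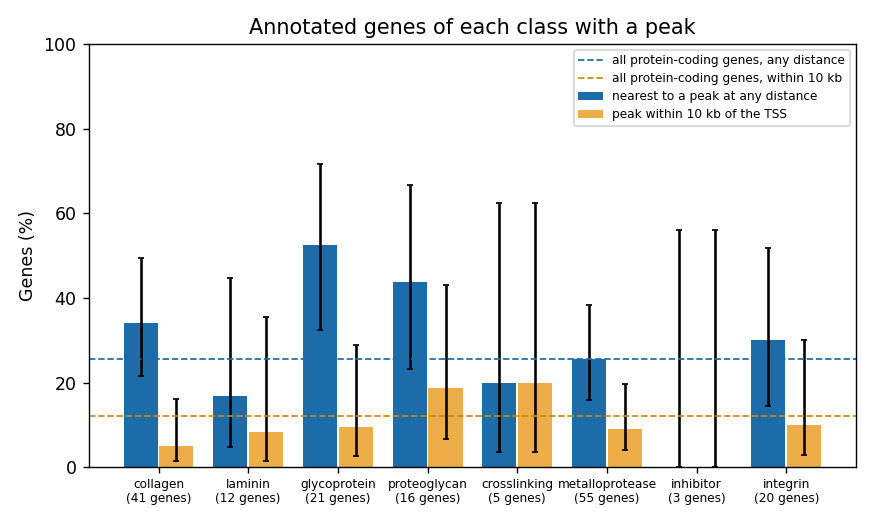
The percentage of annotated genes of each class that were nearest to a peak at any distance (blue) or within 10 kb of the TSS (orange), with Wilson 95% intervals; dashed lines mark all protein-coding genes (25.6% and 12.1%). Glycoproteins (52.4%) and proteoglycans (43.8%) stand highest at any distance, TIMP inhibitors have no peak, and the intervals are wide because each class holds 3 to 55 genes.

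Among metalloproteases and their relatives, 14 of 55 annotated genes (25.5%, interval 15.8 to 38.3) were nearest to a peak, the same level as among all genes (25.6%). The ADAMTS family, secreted enzymes that cut proteoglycans and process procollagens, made up most of the protease peaks. It had 21 peaks at 10 of 18 genes, and 6 of the 21 were at ADAMTS9. MMP genes had a peak at 2 of 14 (MMP16 and MMP24, with 1 peak each), ADAM genes at 2 of 17, and the 6 ADAMTSL and ADAMDEC1 genes had none. For these families within the class no interval was computed, and their difference from all genes (25.6%) was not tested. The MMP24 peak was also assigned to MAP1LC3A. ADAMTS9, which cuts aggrecan and versican, had the most peaks of any gene in the group. Its 6 peaks lay between 77614 and 194571 bp from the TSS on the higher side, with 9 to 11 fragments each. The strongest, on chromosome 12 from 14377794 to 14377910, was enriched 5.22-fold with a −log10 q of 3.88. ADAMTS12 had the ADAMTS peak nearest to a TSS, 2781 bp away on chromosome Z from 10309964 to 10310075, with 10 fragments, a 4.79-fold enrichment and a −log10 q of 3.07, and a second on the other side at 19373 bp. ADAMTS18 had the most distant peak of the group, at 265923 bp. ADAMTS8 and ADAMTS15, neighbours in the gene order, had 2 peaks and 1 peak, and the 2 ADAMTS8 peaks were 947 bp apart. The gelatinase genes MMP2 and MMP9 and the inhibitor genes TIMP2, TIMP3 and TIMP4 were nearest to no peak.

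Integrin genes had peaks at 6 of 20 annotated subunits (30.0%, interval 14.5 to 51.9), against 25.6% of all genes. ITGB1, the β1 subunit shared by most matrix-binding integrins, had a peak on chromosome 2 from 14048088 to 14048281, at a TSS distance of 9606 bp, with 11 fragments, a 5.22-fold enrichment and a −log10 q of 3.88, and a second on the same side at 47215 bp with 8 fragments. ITGA6, the α6 subunit that pairs with β1 to bind laminin, had the same 3 values at its stronger peak, on chromosome 7 from 17811751 to 17811984 and at a TSS distance of 20011 bp, and 7 fragments at 10369 bp. In the RefSeq gene order PDK1, a hypoxia-response gene of glucose metabolism, lies beside ITGA6. The distance of the ITGA6 peaks from PDK1 was not computed, and a link to PDK1 was not tested. ITGAV, the αV subunit of fibronectin and vitronectin receptors, had 1 peak at 6773 bp with 7 fragments (3.31-fold). ITGA4, ITGA11 and ITGB8 had 1 peak each with 7 or 8 fragments. The β2 to β6 subunit genes were nearest to none.

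Of the 3 genes caught by prefix alone, COL4A3BP and SDCBP had, together with SDC2, the peaks of the group nearest to a TSS. COL4A3BP, which encodes a ceramide transfer protein, had its peak on chromosome Z from 23904880 to 23905015, at a TSS distance of 285 bp, with 9 fragments (4.35-fold, −log10 q 2.38). SDCBP, which encodes syntenin 1, an adaptor that binds the tails of syndecans, had its peak on chromosome 2 from 112047711 to 112047848 at 2073 bp with 10 fragments (4.49-fold, −log10 q 2.81). ITGB1BP1, which encodes a protein that binds the β1 integrin tail, had a peak at 20070 bp (chromosome 3, 96170453 to 96170745) with 12 fragments and a 5.38-fold enrichment, the 5th highest of the group. Without these genes, 6 of 103 peaks (5.83%) lay within 3 kb and none within 1 kb, which allows a share of up to 2.91% at 3 counts and 3.60% by the Wilson interval.

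**Figure D4:**
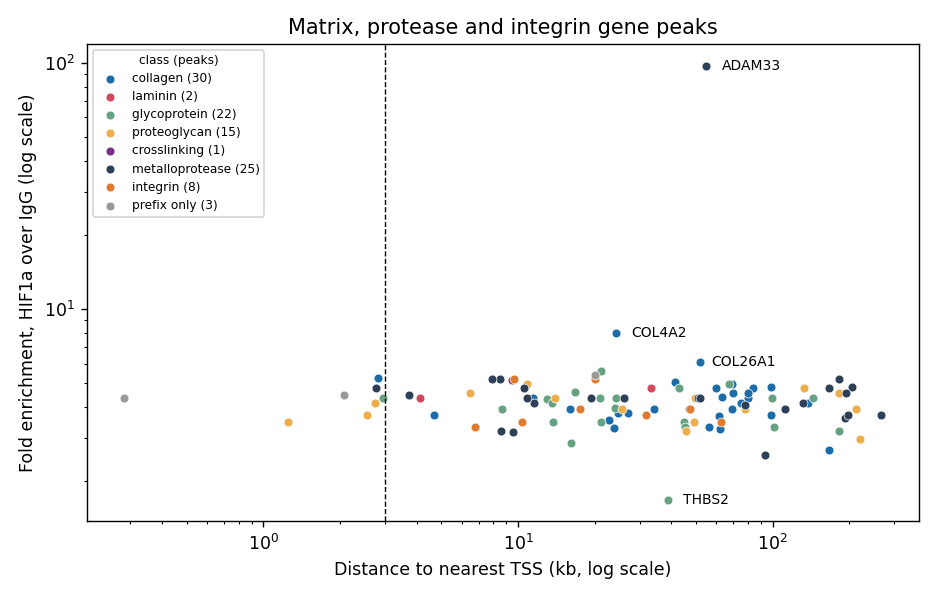
Fold enrichment of HIF1α over IgG (log scale) against distance to the nearest TSS (kb, log scale) at the 106 peaks, coloured by gene class, with a dashed line at 3 kb. ADAM33 at 97.1-fold is the single point above 10-fold, COL4A2 follows at 8.01-fold, and 8 peaks lie left of the line.

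Some genes were nearest to several peaks. Of 183 annotated genes that met the name rule, 58 (31.7%, interval 25.4 to 38.8) were nearest to a peak, against 25.6% of all genes, and 26 (14.2%, interval 9.88 to 20.0) were nearest to 2 or more, against 9.31% of all genes. Those 26 genes held 74 of the 106 peaks. The share of all listed peaks held by genes with 2 or more peaks, or with 4 or more, was not computed. Genes nearest to 4 or more peaks numbered 7 (3.83%, interval 1.87 to 7.68), against 1.71% of all genes, and held 33 peaks: ADAMTS9, COL26A1, POSTN, THBS2, COL9A2, GPC4 and GPC5. A peak within 10 kb was found at 18 of 183 genes (9.84%, interval 6.31 to 15.0), against 12.1% of all genes. The intervals for a peak at any distance and within 10 kb held the values of all genes. Those for 2 or more and for 4 or more peaks lay just above them. None of these differences was tested, and the shares of all genes may be too low, as said above. Peaks were assigned to the nearest TSS whatever the spacing of genes, which was not analysed here. Peaks close together were no more frequent than elsewhere, since 6 of the 106 (5.66%) had another listed peak within 1 kb, against 5.53% of all peaks. They formed 3 pairs, at COL9A2 (222 bp apart), GPC4 (279 bp) and ADAMTS8 (947 bp).

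Where 2 or more peaks shared a transcript, the deposited distances fixed the position of its TSS, and for all 1651 such transcripts in the list exactly 1 position met every distance. This placed 68 peaks of 23 genes in the group on a side of their TSS, 29 toward lower and 39 toward higher coordinates. Peaks lay on both sides at 7 genes (ADAMTS12, ADAMTS6, COL5A2, GPC4, NID1, POSTN and THBS2) and on 1 side at the other 16. POSTN and THBS2 each had 2 start sites, 474 and 335 bp apart. The strand of the genes was not given, so peaks were not sorted into upstream and downstream or into exons and introns.

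**Figure D5:**
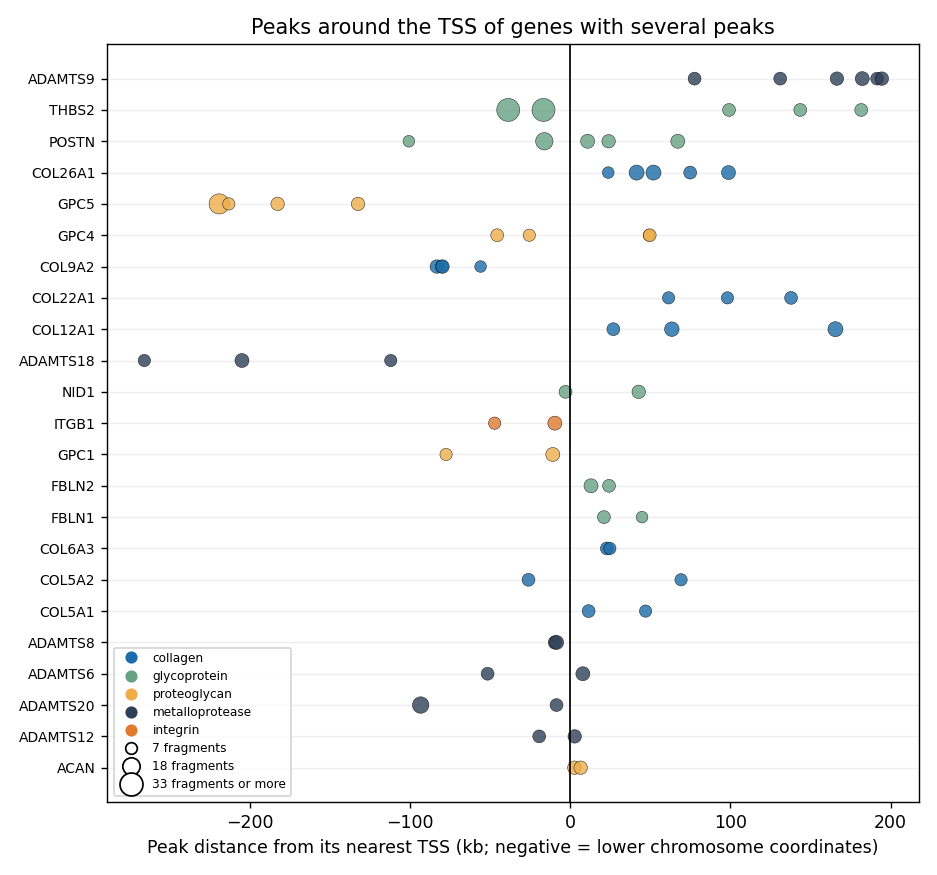
Distance of each peak from its TSS (kb, with negative values toward lower chromosome coordinates) for the 23 genes with several peaks whose TSS was recovered. Colour gives the gene class and point size the fragment count, with counts of 33 or more drawn alike. ADAMTS9 and COL26A1 have all peaks on the higher side, COL9A2 and GPC5 all on the lower side, and the 2 large THBS2 points on the lower side have 33 and 93 fragments.

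The peaks were spread over 19 of the 34 chromosomes in the list. Microchromosomes, taken as chromosomes 11 and above by number, held 33 of the 106 peaks (31.1%, interval 23.1 to 40.5), against 23.8% of all peaks. Chromosome Z held 5 (4.72%), against 2.85% of all peaks, at ADAMTS12, ADAMTS6 and COL4A3BP. Chromosomes 6 and 8, with 286 and 248 listed peaks, held none.

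Matrix genes that are widely described as HIF targets in other tissues had peaks at a share near the background of all genes. Of 19 such genes, 16 were found in the gene table and 5 of these (31.2%, interval 14.2 to 55.6) had a peak, against 25.6% of all genes: P4HA2, PLOD2, FN1, COL5A1 and CCN2. Of these, P4HA2, a subunit of the enzyme that hydroxylates prolines in collagen, alone had a peak within 10 kb. That peak, on chromosome 13 from 17468447 to 17468717 and at a TSS distance of 2511 bp, held 8 fragments (3.90-fold, −log10 q 1.81). PLOD2, which hydroxylates lysines in collagen before crosslinking, had 6 peaks at 53259 to 199111 bp, 3 of them with a high IgG background. COL5A1, a fibrillar collagen chain that helps to start fibrils, had 2 peaks, the nearer at 11463 bp with 9 fragments. CCN2, a secreted connective tissue growth factor named CTGF in the list, had 4 peaks at 28334 to 110256 bp with 7 to 10 fragments. LOX, LOXL2, LOXL4, P4HA1, PLOD1, ITGA5, ITGB2, MMP2, MMP9, ADAM17 and THBS1 were nearest to none. A gene nearest to no listed peak may still have bound HIF1α below what 7 fragments could show.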

How the data were processed

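The authors trimmed reads with Trimmomatic, aligned them to galGal6 with Bowtie2, used SAMtools, kept short fragments and called peaks with MACS2 on the pooled HIF1α against the pooled IgG libraries (versions not given in the sources used here). The deposited pileup is a signal in whole HIF1α fragments at the summit. The deposited fold enrichment is the ratio of pileup plus 1 to background plus 1, and the deposited −log10 p and −log10 q are those of the MACS2 Poisson test. The Poisson p recomputed from pileup and background matched the deposited −log10 p within 0.00165 at 8369 peaks, so the pileup was taken as unscaled, although a supplementary note of the study describes it as scaled to sequencing depth. Depth per library is unknown from the list. The number of columns holding values of an unknown sample was 0.

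Peaks were selected by gene symbol, and shares were given with Wilson 95% intervals, medians with rank intervals and fragments with exact Poisson intervals (python 3.11.15, pandas 2.3.3, scipy 1.17.1). Scripts were tested on simulated data. No test between gene groups was run. Names, gene types and gene order were taken from the RefSeq table of GRCg7b, in which all 58 symbols were found. Named were peaks within 3 kb, the 5 highest by −log10 q and by fold enrichment, genes with 4 or more peaks, the strongest peak of each class and 3 lists (lens capsule, hypoxia matrix, further matrix), and other genes were named after their values were seen. The members and lists were chosen with earlier results of these data known. Alternatives were other thresholds, windows and membership rules. Promoter motifs were planned but not analysed here.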

Additional observations from a re-analysis of the deposited data

How the results depend on the processing

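Of 81 values recomputed under alternative settings, 65 stayed within the spread or within 1.5 times the count and 16 moved. Only values of the gene group were recomputed in this way. Their order against all peaks or all genes was not tracked. With a −log10 q of at least 2, 64 peaks were left, 11 genes had 2 or more peaks, 23.5% of the annotated genes were nearest to a peak, the median −log10 q was 2.88 and the median fold enrichment 4.56. With a −log10 q of at least 3, 30 peaks of 25 genes were left, 4 genes had 2 or more, 13.7% of the annotated genes were nearest to a peak, and the medians were 3.57 and 4.97. With a peak within 10 kb or 3 kb, 9.84% and 4.37% of annotated genes had one, and a window of 10 kb in place of 3 kb held 18.9% of peaks. The share with a high IgG background was 1.98% at a fold enrichment of at least 3, and 0% by construction without such peaks. These moves follow from how each setting cuts the list. The share of all genes was not recomputed at either q threshold, so 23.5% and 13.7% have no background beside them. The 25.6% of all genes belongs to the uncut list. With 1 fragment fewer per peak, an alternative chosen after seeing the data, 87 of the 106 peaks would have been kept. The HIF1α and IgG libraries were pooled, so leaving out a replicate was not possible. No paired analysis was possible because no column belonged to a single library. The share of promoter sequences with a HIF motif was not run.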

Other observations

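Some matrix and cell adhesion genes that the name rule did not cover were also nearest to HIF1α peaks. Of 47 further genes, 43 were found in the gene table, and 19 of these (44.2%, interval 30.4 to 58.9) had a peak, against 25.6% of all genes. The 47 genes were chosen with earlier results of these data known, so this share only describes the chosen list. Within 10 kb 5 had one (11.6%), against 12.1% of all genes, and within 3 kb 3 had one (6.98%), against 5.61%, so near a TSS the shares were close to those of all genes. The list had 35 peaks in all, including the 4 CCN2 peaks already counted among the HIF targets. PXN encodes paxillin, an adaptor at the integrin adhesion site, and 2 peaks were assigned to PXN, RPLP0 and the non-coding RNA RF02271 together. The stronger, on chromosome 15 from 9680075 to 9680520, lay 389 bp from a TSS with 15 fragments, a 6.96-fold enrichment and a −log10 q of 7.73. The other, from 9721133 to 9721300, lay 183 bp from a TSS with 8 fragments. By these positions the 2 peaks lay at different start sites. Both peaks were nearer to a TSS than any peak of a collagen, laminin, protease or integrin gene. The shared assignment does not tell which of the 3 genes was nearest to either peak.

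HAPLN3, a link protein that fastens proteoglycans to hyaluronan, had a peak 2680 bp from its TSS on chromosome 10 from 13486868 to 13486995, with 11 fragments (5.22-fold), and ACAN, an example of such proteoglycans, is its neighbour in the gene order and had 2 peaks of its own. TNN, a tenascin, had a peak at 1184 bp with 9 fragments (4.35-fold). SMOC1, a secreted calcium-binding protein of basement membranes, had one at 9707 bp with 12 fragments (5.66-fold, −log10 q 4.76). DCN, LUM and EPYC, small leucine-rich proteoglycans on chromosome 1, had 7 peaks over 470125 bp, of which 2 had a high IgG background, and the nearest to a TSS was that of DCN at 9426 bp with 7 fragments. PTK2, the focal adhesion kinase that acts downstream of integrins, had 4 peaks with 9 to 14 fragments, none within 10 kb.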
